A study of Mus musculus with 6 samples.

Results

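The genes described here are 9 regulators and fasting-responsive targets of the peroxisome proliferator-activated receptor (PPAR) system in the mouse heart. They were chosen by name: every non-control probe whose gene name was Ppara, Ppard, Ppargc1a, Ppargc1b, Pdk4, Ucp2, Ucp3, Angptl4 or Acot1. All 9 were on the array, out of 36163 gene names in all and 21938 that matched a RefSeq symbol or synonym. They were read by 13 probes, with 3 probes for Ppara, 2 each for Ppargc1a and Ucp3, and 1 for each of the other 6 genes, and all 13 probes were well above background on all 6 arrays.

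Total RNA of cardiac muscle from male C57BL/6 mice was hybridised in 1 colour to 6 Agilent arrays, with 3 sham mice and 3 mice kept head-down by the tail, a model of weightlessness, for 28 days. Both groups were housed and fed alike. Suspension started at 10 weeks of age, whereas the age label of every sample reads 11 weeks. The labels do not give the feeding state or the hour at which hearts were taken. Levels are log2 values of the processed intensity, the background-corrected brightness of a spot, relative to the 75th percentile of that array, which lay between 302 and 376, and a level is compared only between arrays and never between probes. The groups were compared with limma across 28032 tested probes, with Benjamini-Hochberg adjustment at 0.05, and each gene was represented by the brightest of its tested probes, which gave 14200 genes with a RefSeq name. The replicates are separate mice in the series' design.

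PPARs are nuclear receptors that bind fatty acids and their derivatives, pair with retinoid X receptors and switch on genes of fatty acid uptake, storage and oxidation. In the heart, which burns mainly fatty acids, PPARalpha and PPARdelta do most of this work, helped by the coactivators PGC-1alpha and PGC-1beta. When an animal fasts, fatty acids from fat stores reach the heart, and targets such as Pdk4, Angptl4, Ucp3 and Acot1 are known to rise.

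The tissue label fitted its markers. All 8 cardiomyocyte markers were well above background on every array, and their summed level, in units of the 75th percentile, was 3961 to 4308 in sham and 3616 to 3732 in tail-suspension. Among them, each read by its brightest probe, Actc1, cardiac actin, changed most, by -0.33 on the log2 scale (standard error, SE, 0.08; limma adjusted p = 0.0364). Probes of 1 marker did not always give like values. The dimmer Myh6 probe changed by -1.47 (limma adjusted p = 0.0096) and the brighter by -0.091 (0.603). The dimmer Atp2a2 probe changed by -0.64 (limma adjusted p = 0.0369) and the brighter by -0.29 (0.0599). Gapdh, a glycolytic enzyme used as a control, changed by -0.034 (SE 0.10, limma adjusted p = 0.828).

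The array reads each transcript through a 60-base probe. The first 30 bases of the probes on which the results turn are shown, 5′ to 3′ as printed on the array. The Ppargc1a and Ucp3 pairs each read different places in 1 transcript. The Ppargc1a pair did not give the same call, and the Ucp3 pair, neither of them called, gave changes of opposite sign. Pdk4, Angptl4 and Acot1 were each read by a single probe. Coordinates are on mm9, as the files give them, and cover the whole probe. On chromosome 5, minus strand, lie the brighter Ppargc1a probe at chr5:51848928-51848987 and the dimmer one at chr5:51846926-51846985, at transcript positions 2964 and 4966. On chromosome 7, plus strand, lie the brighter Ucp3 probe at chr7:107630399-107630458, the dimmer Ucp3 probe at chr7:107634291-107634350, at transcript positions 745 and 1797, and the Ucp2 probe at chr7:107647809-107647868. The Pdk4 probe lies at chr6:5433441-5433500 on the minus strand, the Angptl4 probe at chr17:33911880-33911939 on the minus strand, and the Acot1 probe at chr12:85358561-85358620 on the plus strand. The files do not say whether a probe lies in coding or untranslated sequence.
Ppargc1a brighter probe: ccccttcaaatggcagcatttccatgaaga
Ppargc1a dimmer probe: aggccaatgcagctaattttgacagctgca
Ucp3 brighter probe: aagaaatgccattgtcaactgtgctgagat
Ucp3 dimmer probe: caatgttttaggagagattctgtccagaga
Ucp2 probe: ctcaaaagagccctaatggctgcctaccaa
Pdk4 probe: tatgaacccatgggagactttaaactcttg
Angptl4 probe: atggtgctgttgtaggtgctgtggatgcac
Acot1 probe: tctatggaaactggagctatccaagaaaag

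Of the 9 genes, Ucp2 rose and Ppargc1b fell in tail-suspended hearts, and the other 7 did not pass the threshold. Over all 14200 genes, 10.5% rose and 11.2% fell, so that 1 of 9 in each direction is near the share over all genes. The median log2 change of the 9 genes was 0.18, against -0.025 over all genes. In 4 of the 9 genes (Ppargc1a, Ppargc1b, Ucp2 and Acot1) the tail-suspension arrays did not overlap the sham arrays, which was so for 47.6% of all genes. The pattern that set several of these genes apart lay inside the tail-suspension group. Pdk4, Angptl4 and Acot1 were each at least 2-fold higher on the array of tail-suspension replicate 2 than on both other tail-suspension arrays, 3 of 9 genes against 0.711% of all genes. This pattern was noticed in the values and then counted, the array is 1 mouse, and no test stands behind it.

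**Figure D1:**
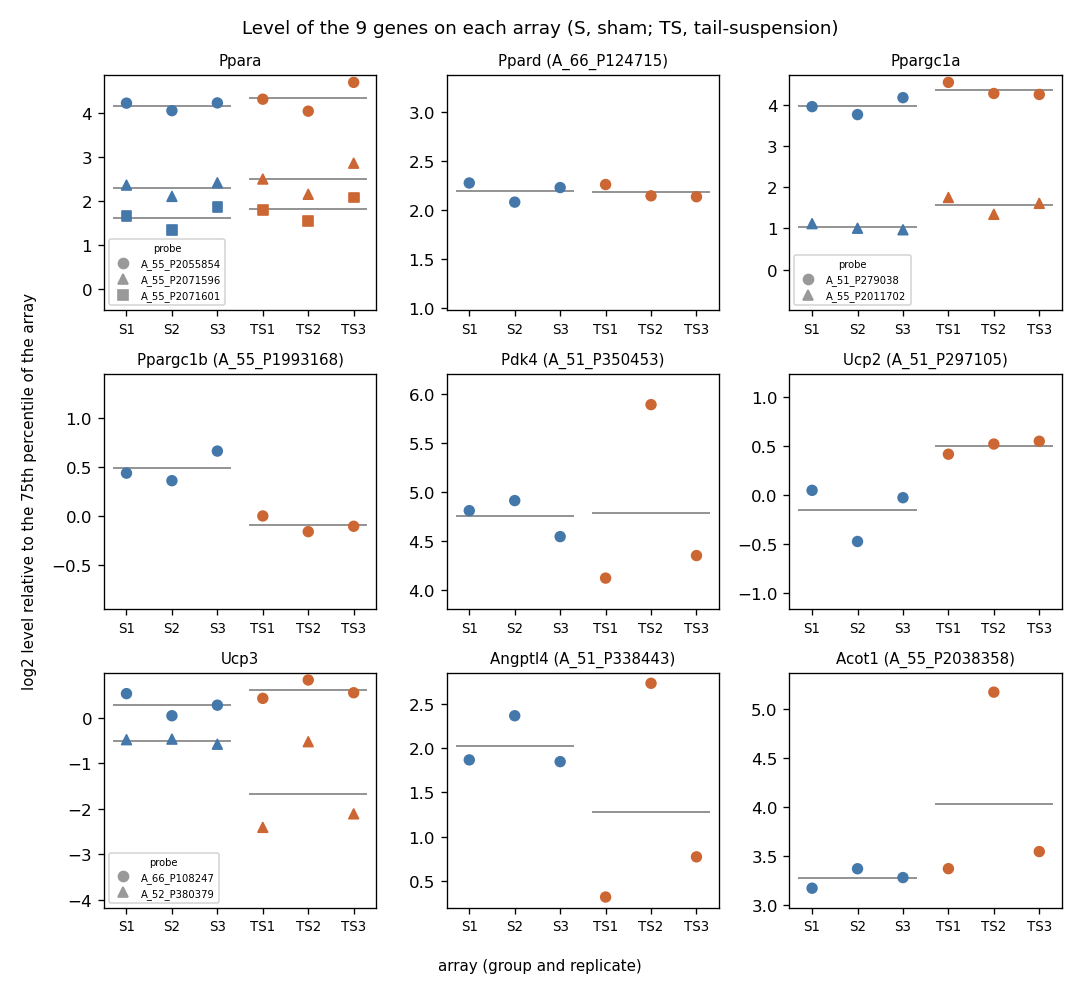
Log2 level relative to the 75th percentile of the array for each of the 13 probes of the 9 genes, on sham arrays (S1 to S3, blue) and tail-suspension arrays (TS1 to TS3, orange). Grey lines are group means and marker shapes are probes of the same gene, and the Pdk4, Angptl4, Acot1 and dimmer Ucp3 probes show TS2 well above TS1 and TS3.

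Ppara and Ppard encode the receptors themselves. The brightest Ppara probe had a log2 level of 4.22, 4.05 and 4.22 in sham hearts and 4.31, 4.04 and 4.69 in tail-suspended hearts. Tail-suspension replicates 1 and 3 lay above every sham array, and replicate 2 lay just below all of them. The change was 0.18 (SE 0.17, limma adjusted p = 0.472), and the other Ppara probes gave 0.21 and 0.18, so that the 3 probes, spread over transcript positions 2273 to 7356, gave like values. Ppard was at 2.27, 2.08 and 2.23 in sham hearts and 2.26, 2.14 and 2.13 in tail-suspended hearts. The groups overlapped throughout, and the change of -0.015 had a 95% confidence interval of -0.24 to 0.21, the narrowest interval among the 13 probes.

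Ppargc1a and Ppargc1b encode the coactivators PGC-1alpha and PGC-1beta, which drive mitochondrial and oxidative genes together with PPARs and estrogen-related receptors. Their fitted changes had opposite signs. The brighter Ppargc1a probe had a level of 3.95, 3.76 and 4.17 in sham and 4.54, 4.27 and 4.25 in tail-suspension, and the dimmer probe of 1.12, 1.00 and 0.97 in sham and 1.75, 1.34 and 1.61 in tail-suspension. Both probes were higher on every tail-suspension array than on any sham array. The dimmer probe rose by 0.54 (SE 0.12, limma adjusted p = 0.030), a 1.45-fold rise, whereas the change of the brighter probe, 0.39 (SE 0.14), did not pass (limma adjusted p = 0.0895). Since the brighter probe stands for the gene, Ppargc1a is counted as not called. It was called under the normexp background correction (limma adjusted p = 0.0351) and with array weights (0.0386).

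The single Ppargc1b probe was at 0.43, 0.36 and 0.66 on the sham arrays. It was at -0.0026, -0.16 and -0.11 in tail-suspended hearts. All 3 tail-suspension arrays lay below all sham arrays, and the level fell by 0.57 on the log2 scale (SE 0.11, limma adjusted p = 0.0177), to 0.671 of the sham level. It was the only member with a call that also passed the methods' t-test once adjusted by Benjamini-Hochberg (0.0497). Without tail-suspension replicate 3 the fall was no longer past the threshold (limma adjusted p = 0.0617), nor was it with the slide row as a block (0.176). Only tail-suspension replicate 1 shared the row of the sham arrays, so that this fit sets 1 tail-suspension array against 3 sham arrays, and no member passed it.

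Ucp2 and Ucp3 encode uncoupling proteins, carriers of the inner mitochondrial membrane. Ucp2 was at 0.052, -0.47 and -0.023 in sham and at 0.42, 0.52 and 0.55 in tail-suspension. The lowest tail-suspension array lay above the highest sham array, and the change was 0.65 (SE 0.15, limma adjusted p = 0.0305), a 1.57-fold rise. The rise kept its direction under every alternative but was not called in 9 of them. With arrays left out, these were sham replicate 2 (limma adjusted p = 0.0571), sham replicate 3 (0.0509) and tail-suspension replicates 1, 2 and 3 (0.0655, 0.0575 and 0.0915). The others were no filter on dim probes (limma adjusted p = 0.0939), the replicate block (0.0607), the methods' t-test after adjustment (0.0865) and the row block (a change of 0.57). In bulk tissue a change in a cell's RNA and a change in the number of cells cannot be told apart, and Ucp2 is also expressed in leukocytes. The median log2 change was 3.29 over the 6 tested neutrophil markers, 3 of which rose, and 0.52 over the 7 tested macrophage markers, of which 2 rose. Over all genes, 10.5% rose. The summed level of the 8 neutrophil markers was 144 to 172 in sham and 208 to 237 in tail-suspension, and that of the 8 macrophage markers 24.4 to 32.0 in sham and 26.2 to 40.5 in tail-suspension. Each summed level in this report adds different probes and leans on the brightest, so it need not follow the dimmer markers. Among the macrophage markers the brightest Csf1r probe, with a mean log2 level of 4.46, weighs most. The part of these markers in the Ucp2 result was not tested.

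The 2 Ucp3 probes disagreed. The brighter probe was at 0.53, 0.048 and 0.28 in sham and at 0.43, 0.83 and 0.55 in tail-suspension, overlapping groups with a change of 0.32 (SE 0.16, limma adjusted p = 0.196). The dimmer probe, further along the transcript, was at -0.48, -0.47 and -0.58 in sham and at -2.41, -0.52 and -2.11 in tail-suspension. Tail-suspension replicate 2 thus lay within the sham range while replicates 1 and 3 lay far below it, and the fitted change was -1.17 (SE 0.46, limma adjusted p = 0.114). Without replicate 2 the dimmer probe fell by 1.75 on the log2 scale (limma adjusted p = 0.0025), while the brighter one changed by 0.20 (0.384). The files list the same RefSeq transcript for both probes, so the levels of Ucp3 differ by the stretch that is read and no direction is given for the gene.

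Pdk4 encodes pyruvate dehydrogenase kinase 4, which shuts off pyruvate dehydrogenase and so spares glucose. Its level was 4.81, 4.91 and 4.54 in sham hearts and 4.12, 5.89 and 4.35 in tail-suspended hearts. Replicates 1 and 3 of tail-suspension lay below all sham arrays and replicate 2 above all of them, 2.91-fold above the higher of the other tail-suspension arrays. With all 6 arrays the change was 0.033 (SE 0.45, limma adjusted p = 0.964), with a 95% confidence interval of -1.03 to 1.10. Without tail-suspension replicate 2 it was -0.52 (SE 0.15, limma adjusted p = 0.058), the opposite sign.

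Angptl4 encodes angiopoietin-like 4, a secreted inhibitor of lipoprotein lipase. It was at 1.87, 2.37 and 1.85 in sham and at 0.32, 2.73 and 0.77 in tail-suspension. Again replicates 1 and 3 of tail-suspension lay below all sham arrays and replicate 2 above all of them, 3.89-fold above the higher of the other tail-suspension arrays. The change was -0.75 (SE 0.59, limma adjusted p = 0.392). Without replicate 2, Angptl4 fell by 1.48 on the log2 scale (SE 0.22, limma adjusted p = 0.0118), a level 2.79-fold lower than in sham.

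Acot1 encodes a cytosolic acyl-CoA thioesterase, which frees fatty acids from coenzyme A. It was at 3.17, 3.37 and 3.28 in sham and at 3.37, 5.17 and 3.54 in tail-suspension. The first tail-suspension array lay above the highest sham array by less than 0.01, so the groups barely separated, and replicate 2 was 3.09-fold above the higher of the other tail-suspension arrays. The change was 0.76 (SE 0.45, limma adjusted p = 0.265), and 0.18 (adjusted p = 0.266) without replicate 2. Acot1 and Acot2 are near-identical copies, and a probe may read both, so the Acot1 values are uncertain in this respect.

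Without tail-suspension replicate 2, 2 of the 9 genes fell (Angptl4 and Ppargc1b), against 10.7% of all genes, and none rose, against 10.5% of all genes, by limma. At an unadjusted p of 0.05, 3 genes were lower and 2 higher in that fit. Replicate 2 was singled out after its values in these genes were seen, so the fit is a description and no test. Under the normexp correction and with the authors' own values, the fit without replicate 2 also called Pdk4 lower (limma adjusted p = 0.0464 and 0.0471). The normexp fit called Ucp2 (limma adjusted p = 0.0230) and Ppargc1a (0.0351) higher as well, whereas the authors' values gave no gene higher.

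**Figure D2:**
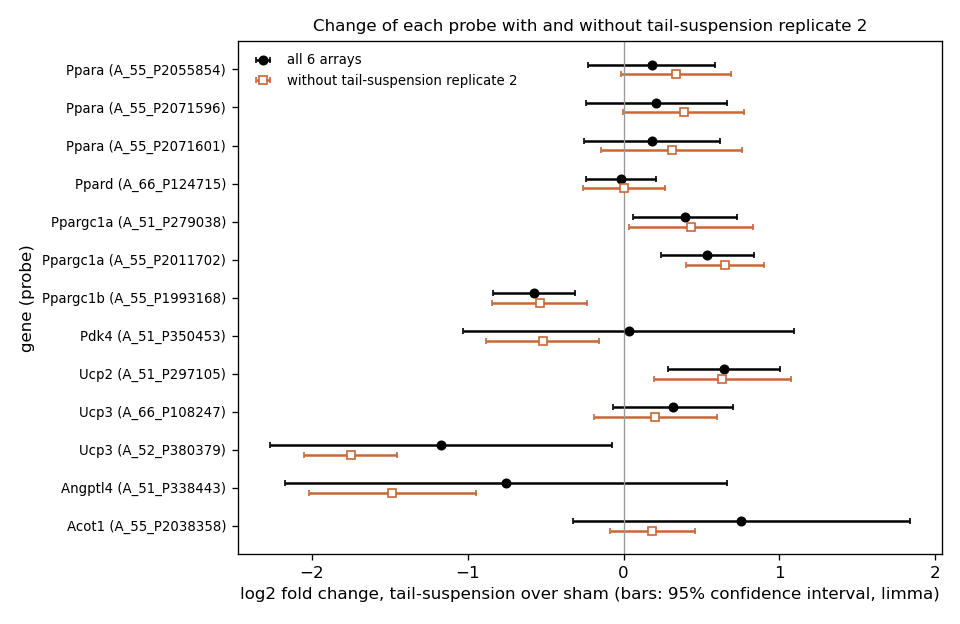
Fitted log2 fold change of tail-suspension over sham for each probe with its 95% confidence interval, with all 6 arrays (black) and without tail-suspension replicate 2 (orange squares). Leaving out 1 array moves Pdk4 from 0.033 to -0.52, Angptl4 from -0.75 to -1.48 and Acot1 from 0.76 to 0.18, while Ucp2 and Ppargc1b stay near 0.65 and -0.57.

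A list of 27 PPAR target genes of fatty acid handling was read beside them, of which 25 were tested. Slc27a1, a fatty acid transporter, rose, while Cpt2, Acsl1 and Pex11a fell, and 21 did not pass. Over all genes, 10.5% rose and 11.2% fell. Slc27a1 was at 3.25, 2.98 and 3.06 in sham and at 4.0002, 4.83 and 3.90 in tail-suspension, a change of 1.15 (SE 0.25, limma adjusted p = 0.0251). Cpt2, the inner carnitine palmitoyltransferase, was at 6.14, 6.05 and 5.93 in sham and at 4.73, 5.56 and 4.58 in tail-suspension, a change of -1.08 (SE 0.25, limma adjusted p = 0.0301). Acsl1, which activates long-chain fatty acids, fell by 0.50 (limma adjusted p = 0.0186) and Pex11a, a peroxisomal protein, fell by 0.51 (limma adjusted p = 0.0294). In all 4 the tail-suspension arrays lay on 1 side of the sham arrays, and in all 4 replicate 2 had the highest value of the 3 tail-suspension arrays. Probes of 1 gene did not always give the same call here either. The dimmer Cpt1b probe rose by 0.36 (limma adjusted p = 0.0354), while the brighter one changed by -0.061 (0.718). The dimmer Acsl1 probe changed by -0.56 without passing (limma adjusted p = 0.0824), and the dimmer Cpt2 probe by -1.40 (0.0300).

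Replicate 2 stood above the other tail-suspension arrays across most of this list. It was the highest of the 3 tail-suspension arrays in 23 of the 25 genes, the exceptions being Lpl and Plin5, against 36.8% of all genes. It was the highest of all 6 arrays in 9 of 25, against 18.0% of all genes, and in 4 of the 9 members (Pdk4, Ucp3, Angptl4 and Acot1). Relative to the sham mean, the median over the list was -0.35 on replicate 1, 0.023 on replicate 2 and -0.31 on replicate 3. Acads, short-chain acyl-CoA dehydrogenase, was at least 2-fold higher on replicate 2 than on both other tail-suspension arrays, and it lay within the sham range there. Vnn1, pantetheinase, was well above background on replicate 2 alone, and Fgf21 on no array.

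**Figure D3:**
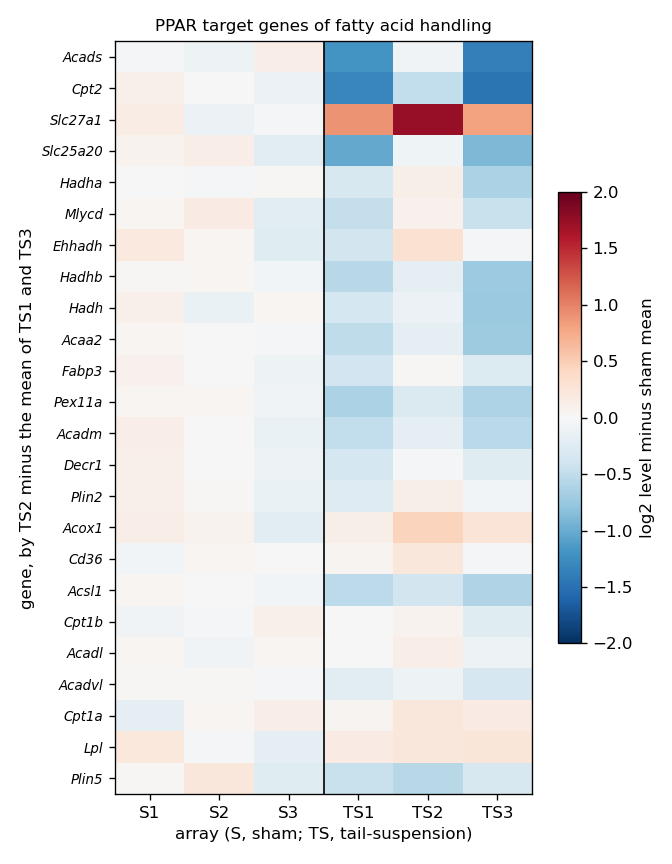
Log2 level minus the sham mean on each array for tested PPAR target genes of fatty acid handling, ordered by tail-suspension replicate 2 (TS2) minus the mean of replicates 1 and 3 (TS1, TS3). Most genes are blue on TS1 and TS3 and near white on TS2, and Slc27a1 stands out in red on all 3 tail-suspension arrays, most on TS2.

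With replicate 2 left out, 9 genes of the list fell by limma in place of 3, against 10.7% of all genes. They were Cpt2, Slc25a20, Acadm, Acads, Hadha, Hadhb, Acaa2, Acsl1 and Pex11a. In that fit 1 gene rose, against 10.5% of all genes, and the median change went from -0.22 to -0.33. Replicate 2 was singled out because it was high in these genes. Leaving it out therefore lowers their group means, and the count is a description and no test. Cpt2 and Slc25a20 belong to the carnitine shuttle, and Acadm, Acads, Hadha, Hadhb and Acaa2 to steps of beta-oxidation. The 9 were named after their values were seen. Other listed genes of these processes did not pass in that fit. Acadvl changed by -0.27 (limma adjusted p = 0.0872), Acadl by -0.053 (0.706) and Hadh by -0.55 (0.0539). Cpt1a changed by 0.11 (limma adjusted p = 0.561) and Cpt1b by -0.13 (0.447). Slc25a20, the carnitine carrier, changed by -0.67 (limma adjusted p = 0.105) with all arrays and by -0.96 (0.0104) without replicate 2. Hadhb, a subunit of the trifunctional protein, changed by -0.49 (0.0581) with all arrays and by -0.64 (0.0136) without it.

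Among 21 PPAR partners and coregulators, 2 rose and 2 fell, near the shares over all genes of 10.5% and 11.2%. Pparg, the PPAR of adipocytes, rose by 0.61 (SE 0.10, limma adjusted p = 0.011), from 1.62, 1.69 and 1.81 in sham to 2.39, 2.36 and 2.20 in tail-suspension. Ep300, a histone acetyltransferase that serves as a coactivator, rose by 0.49 (adjusted p = 0.0237). Lpin1, lipin 1, a phosphatidate phosphatase and coactivator, and Tfam, the mitochondrial transcription factor, fell, the latter by 0.49 (adjusted p = 0.0249). The median over the list was -0.070, near that of all genes. Replicate 2 was highest of the tail-suspension arrays in 7 of 21 genes, against 36.8% of all genes.

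Because Pparg marks adipocytes, fat cell markers are given beside it. Of 10 adipocyte markers 4 could be tested, of which Lipe, hormone-sensitive lipase, rose by 1.06 (limma adjusted p = 0.0165) and Adrb3, the adrenergic receptor of fat, fell by 0.75 (adjusted p = 0.00453). Cfd changed most, by 2.90 (adjusted p = 0.149), and Pck1 and Lep were well above background on no array. Adipoq, Plin1, Cidec, Cfd and Retn, most of them too dim to be tested, were highest on tail-suspension replicate 1. Of the 4 tested markers, 2 were highest of the tail-suspension arrays on replicate 2. The median of the tested markers over the sham mean was 0.57, 0.79 and 0.56 on replicates 1, 2 and 3. The summed level of the list was 150 to 169 in sham and 195, 178 and 183 in tail-suspension. Their part in the Pparg and Angptl4 values was not tested.

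Of 13 genes of pyruvate dehydrogenase control, the system to which Pdk4 belongs, 6 fell and 1 rose, against 11.2% and 10.5% of all genes. The median change was -0.20. Pdhx, the E3-binding subunit, fell by 0.83 (SE 0.13, limma adjusted p = 0.0105), from 3.80, 3.91 and 3.61 in sham to 3.10, 2.73 and 2.99 in tail-suspension. Pdp1, the phosphatase that opposes the kinases, fell by 0.65 (adjusted p = 0.010). Dlat, the E2 subunit, fell by 0.53 (adjusted p = 0.0471), with sham replicate 2 left out because its spot carried an outlier flag. Pdk1, another kinase, rose by 0.48 (adjusted p = 0.0357). Probes of Pdhb gave opposite signs. The brightest changed by -0.44 (limma adjusted p = 0.0377), the dimmest by 0.67 (0.0190) and the other by -0.50 (0.0432). Among the tail-suspension arrays, replicate 2 was highest in 4 of these 13 genes, against 36.8% of all genes. The median over the sham mean was -0.36, -0.12 and -0.32 on replicates 1, 2 and 3. With replicate 2 left out, 3 genes fell and 2 rose by limma, against 10.7% and 10.5% of all genes.

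Besides Ucp2 and Ucp3, 5 of 6 genes of uncoupling proteins and adenine nucleotide carriers were tested, of which 2 rose and none fell by limma, also at an unadjusted p of 0.05. After adjustment, 10.5% of all genes rose and 11.2% fell. Slc25a27, also known as UCP4, rose by 0.76 (SE 0.11, limma adjusted p = 0.00915) and Slc25a14, also known as UCP5, by 0.41 (adjusted p = 0.0374). Slc25a4, the main heart carrier of ADP and ATP, changed by -0.12 (adjusted p = 0.299). Ucp1, the uncoupling protein of brown fat, was well above background on no array, and the brown fat marker Elovl3 and the skeletal muscle markers Myh4 and Myh1 were not either. Acta1, skeletal actin, had the largest change among those markers, -0.90 (adjusted p = 0.245).

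In the lipoprotein lipase system, to which Angptl4 belongs, 2 of 9 genes rose and 2 fell, against 10.5% and 11.2% of all genes. The median change was -0.15. Apoc2, the activator of the lipase, was at -3.80, -4.19 and -4.08 in sham and at -1.47, -3.08 and -0.35 in tail-suspension, a change of 2.39 (SE 0.62, limma adjusted p = 0.041), and replicate 2 was the lowest of the 3 tail-suspension arrays. Gpihbp1, which anchors the lipase on capillaries, changed by 0.68 (adjusted p = 0.0497). Lmf1, a maturation factor of the lipase, fell by 0.46 (adjusted p = 0.032). Lpl itself changed by 0.21 (adjusted p = 0.247). Without replicate 2 the fall of Lmf1 was not called (0.051).

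Among acyl-CoA thioesterases, the family of Acot1, 11 of 12 genes were tested, of which Acot3 fell by 1.08 (SE 0.18, limma adjusted p = 0.0123) and none rose, also at an unadjusted p of 0.05. After adjustment, 11.2% of all genes fell and 10.5% rose. Acot3 was at -1.26, -1.24 and -1.60 in sham and at -2.51, -2.11 and -2.71 in tail-suspension. Acot5 was at -1.60, -1.48 and -1.61 in sham and at -1.90, 0.15 and -1.68 in tail-suspension, and Acot2 at 1.36, 1.43 and 1.32 in sham and at 0.94, 2.04 and 0.54 in tail-suspension. Both were thus at least 2-fold higher on replicate 2 than on the other tail-suspension arrays, as Acot1 was, and reads of these close copies cannot be told apart with certainty. Without replicate 2, Acot2 changed by -0.63 (adjusted p = 0.033) and Acot1 by 0.18, opposite signs. Acot12 was well above background on no array.

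Of 17 fasting and FoxO responsive genes 11 rose and 1 fell, against 10.5% and 11.2% of all genes. The median change was 0.83, against -0.025 over all genes. Fkbp5, a cochaperone induced by glucocorticoids, was at 0.47, 1.17 and 0.57 in sham and at 3.75, 3.52 and 4.199 in tail-suspension, a change of 3.08 (SE 0.24, limma adjusted p = 0.00216). Cdkn1a, the cell cycle inhibitor p21, was at 0.50, 1.51 and 1.08 in sham and at 3.53, 3.37 and 4.06 in tail-suspension. Per1, a clock gene, changed by 1.77 (adjusted p = 0.0324) and Foxo3, a FoxO transcription factor, by 1.61 (adjusted p = 0.00236). Gadd45a, a stress gene, was the 1 that fell, by 1.02 (adjusted p = 0.0142), and was named after its value was seen. By its median, replicate 2 did not stand apart on this list, with 1.01 over the sham mean beside 0.85 and 0.98. It was highest of the tail-suspension arrays in 9 of 17 genes, against 36.8% of all genes. Without replicate 2, 9 genes rose and 1 fell by limma, against 10.5% and 10.7% of all genes.

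**Figure D4:**
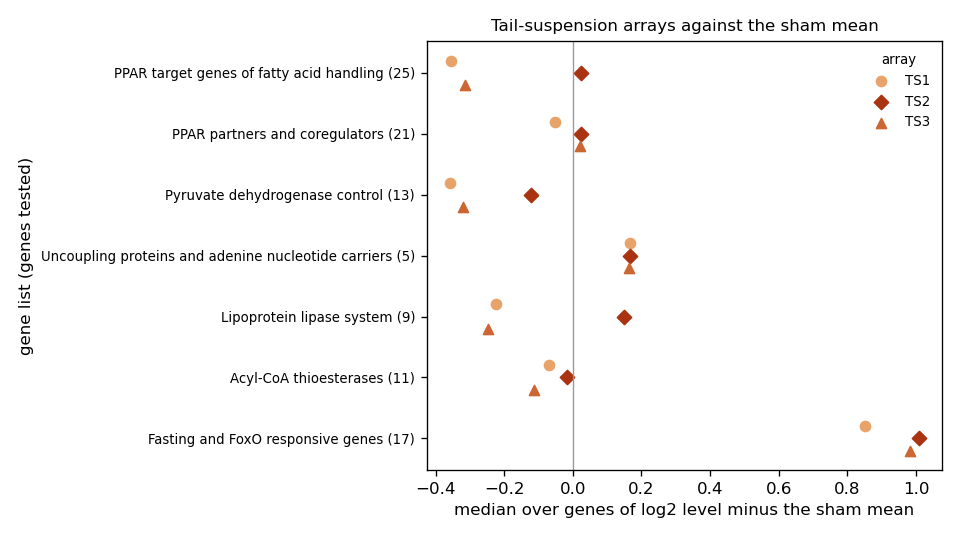
Median over each gene list of the log2 level minus the sham mean, for the 3 tail-suspension arrays (TS1 circles, TS2 diamonds, TS3 triangles), with the number of genes tested in brackets. TS2 lies apart from TS1 and TS3 in the fatty acid list (0.023 against -0.35 and -0.31), the pyruvate dehydrogenase list and the lipoprotein lipase list, and beside them in the fasting and FoxO list.

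Other values also set tail-suspension replicate 2 apart from replicates 1 and 3. It had the lowest array weight of the 6 arrays, 0.487, against up to 1.71. The summed level of the 7 erythroid markers was 429 to 691 in sham and 106, 345 and 155 on tail-suspension replicates 1, 2 and 3. Of the 5 erythroid markers tested, 4 were at least 2-fold higher on replicate 2 than on both other tail-suspension arrays, and Alas2, the first enzyme of heme synthesis in red cells, changed most with -1.62 (limma adjusted p = 0.0619), while Epb4.2 was well above background on no array.

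Immune markers did not follow the erythroid markers, and their direction varied with the measure. The median over the neutrophil markers was 2.56 lower on replicate 2 than on the higher of the other tail-suspension arrays, and over the macrophage markers 0.66 lower. Over all genes this median was -0.076. The neutrophil sum was 237, 219 and 208 on replicates 1, 2 and 3, and the macrophage sum 31.8, 26.2 and 40.5. Replicate 2 was highest of the tail-suspension arrays in 2 of the 6 tested neutrophil markers and 0 of the 7 tested macrophage markers. Retnlg, the neutrophil marker with the largest change, was at 0.50, -1.998 and -0.78 in tail-suspended hearts. Cd163, the macrophage marker with the largest change, was at -2.32, -3.42 and -2.10. The 7 endothelial markers summed to 77.0 on replicate 2 and to 87.1 and 78.8 on the others, with Kdr, the VEGF receptor, changing most by -0.55 (limma adjusted p = 0.0159). The part of these markers, of the array's quality and of its place on the slide in the Pdk4, Angptl4 and Acot1 values was not tested. Replicates 2 and 3 lay in slide row 2, in columns 1 and 2. Each array held 1 mouse, so the place on the slide and the mouse cannot be told apart.

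Promoters were looked up in RefSeq for assembly GRCm38.p6, from 250 bases before to 50 bases after the gene start. The table held 7 of the 9 genes, all but Angptl4 and Ppargc1b. Searched on both strands were AGGTCA, the hexamer bound by nuclear receptors, 2 copies of it in the same orientation 1 base apart (direct repeat 1, the arrangement bound by PPARs, which contains the hexamer), GTAAACA for FoxO, TGACGTCA for CREB, and the glucocorticoid receptor element, AGAACA and its reverse complement 3 bases apart. Only the hexamer in Ucp3 was found, at 149 and 44 bases before the start, and 16.3% of the 32851 promoters in the table hold it. The direct repeat was in 0.0396% of all promoters, the FoxO motif in 3.65%, the CREB motif in 1.79% and the glucocorticoid receptor element in 0.00913%, and in none of the 7. The 250 bases before the start are shown for Ucp3, with the hexamers in capitals, and for Pdk4 and Acot1, which moved together on replicate 2. They lie at chr7:100472741-100472990 on the plus strand, chr6:5496279-5496528 on the minus strand and chr12:84009252-84009501 on the plus strand, and the absence of these letters says nothing of sites elsewhere.
Ucp3: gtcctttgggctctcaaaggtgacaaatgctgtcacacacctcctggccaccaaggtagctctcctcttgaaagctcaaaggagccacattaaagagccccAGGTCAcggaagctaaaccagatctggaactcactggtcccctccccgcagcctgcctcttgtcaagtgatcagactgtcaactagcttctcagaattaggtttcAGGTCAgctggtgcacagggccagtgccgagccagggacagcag
Pdk4: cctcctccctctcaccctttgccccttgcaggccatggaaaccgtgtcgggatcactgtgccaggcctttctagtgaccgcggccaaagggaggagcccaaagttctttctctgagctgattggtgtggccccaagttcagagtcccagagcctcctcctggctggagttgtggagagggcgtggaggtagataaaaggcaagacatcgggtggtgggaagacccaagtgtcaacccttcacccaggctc
Acot1: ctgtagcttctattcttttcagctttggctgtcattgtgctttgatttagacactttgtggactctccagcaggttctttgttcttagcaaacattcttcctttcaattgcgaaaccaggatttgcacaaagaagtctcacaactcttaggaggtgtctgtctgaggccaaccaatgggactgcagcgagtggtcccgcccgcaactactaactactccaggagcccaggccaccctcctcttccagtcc

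The genes whose levels followed Ucp2 and Ppargc1b most closely were named by Pearson's r over the 6 arrays, among 13596 genes well above background on all of them, as a description only. For Ucp2 they were Clcn2 (r = 0.997), Thap7 (0.995) and Ubr4 (0.993), and for Ppargc1b they were Ppp1r16a (0.999), Itpripl2 (0.995) and Jam3 (0.995). Between Ucp2 and the brighter probe of Ucp3, which lies on the same chromosome, r was 0.847. For the dimmer Ucp3 probe, whose change had the opposite sign to the brighter one, r was not computed.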

How the data were processed

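Arrays were scanned by the authors, and each spot was read with Agilent Feature Extraction 10.7.1.1 (submitters' processing notes) into a deposited mean, background and processed intensity. The authors also deposited a table of log2 values, which correlated with the log2 processed intensity of the same array with r of at least 0.9986. No normalization for the arrays is given in the sources used here.

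From 62976 spots per array, control spots and outlier-flagged spots (146 to 212) were left out and the others averaged over 55681 probes. Levels were log2 processed intensity minus the array's 75th percentile. A probe counted as well above background when at least 50% of its spots did (50.9% to 53.4% of probes), and was tested when it did so on every array of 1 group. No spot was saturated. Arrays correlated with r of 0.991 to 0.996 within groups and 0.978 to 0.984 between them, and all lay on 1 slide read in 1 scan. R 4.3.3 and limma 3.58.1 (lmFit, eBayes, no covariates, all 6 arrays) were used, with Benjamini-Hochberg adjustment over all tested probes. Tested on simulated data, the fit called 68 of 100 probes changed by 1 and 96 of 100 changed by 2 on the log2 scale, and 6 of 27832 unchanged probes. The simulated probes varied independently and few were changed, whereas in the data 10.5% of genes rose and 11.2% fell. These call rates may therefore differ from those in the data.

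The members, the 7 pathway lists, the 7 marker lists and the tests were chosen with earlier results of these data known. Named were the members, up to 4 genes with the largest changes past the threshold in each pathway list, the gene with the largest change and undetected markers in each marker list, Gapdh, and the 3 genes most like each of the 2 members with the largest called changes. Other genes of these lists (such as Acads, Vnn1, Slc25a20, Hadhb, Slc25a4, Lpl, Acot2 and Acot5) and the counts on tail-suspension replicate 2 were chosen after their values were seen. Some genes that the rule names or that enter the counts are not reported here. Alternatives were normexp (offset 50) on mean and background intensity, quantile normalization, another percentile, the authors' log2 values, no or a stricter filter, outlier spots kept, a robust trend, array weights, the methods' t-test, replicate and row blocks, another probe rule, a 2-fold minimum and each array left out.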

Additional observations from a re-analysis of the deposited data

How the results depend on the processing

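Over 19 alternatives, 209 of 247 changes of single probes kept their direction and their side of the threshold, 21 lost it, 6 gained it and 11 changed sign. With all arrays, limma called 1 gene higher, 1 lower and 3 probes. By limma the counts were 2 higher and 5 probes under normexp and with array weights, and 2 higher when the probe with the smallest p stood for a gene. The counts were 0 higher, 0 lower and 0 probes without the filter on dim probes, with a 2-fold minimum and with the slide row as a block. At an unadjusted p of 0.05, 2 genes were higher and 1 lower without the filter and in the row fit. The methods' t-test after adjustment gave 0 higher and 1 probe, with 1 higher unadjusted. Replicate numbers did not pair the mice (correlations of deviations -0.020, -0.0176 and 0.0495), and with the replicate number as a block 0 genes were higher, 1 lower and 1 probe passed, with 2 higher unadjusted. With each array left out, 0 to 1 genes were higher, 0 to 2 lower and 0 to 4 probes passed, and the counts fell to 0 probes without tail-suspension replicate 3. The fit without tail-suspension replicate 2 was repeated on other values after seeing the data. It gave 2 higher, 3 lower and 7 probes on normexp values, 0 higher and 2 lower on quantile values, and 0 higher, 3 lower and 5 probes on the authors' values.

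The sign changes were those of Pdk4 and Ppard. Pdk4 changed by -0.31 with array weights and -0.63 with the row block, and by -0.52 to 0.37 with each array left out (-0.52 without tail-suspension replicate 2, -0.073 without sham replicate 3). Ppard changed by 0.018 under normexp, 0.021 with array weights and 0.065 with the row block, and by -0.072 to 0.025 with each array left out. Apart from the arrays left out, the cause was not tested. No slide block was run, since all arrays lay on 1 slide. The 3 mice in each group limit the precision, the smallest two-sided p of an exact permutation test of 3 arrays against 3 being 0.1. All members were well above background on every array, but the background correction moved the dimmer Ucp3 probe from -1.17 (limma adjusted p = 0.114) to -0.84 (0.0436) under normexp. What a probe of a close copy reads is unknown.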

Other observations

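The same likeness rule was applied to Pdk4 and Acot1 after their values had been seen. Over the 6 arrays, genes like Acot1 were Ptp4a1 (r = 0.996) and Agpat3 (0.992), and the 3 most like Pdk4 were Kifap3 (0.988), Hspb7 (0.986) and Tnpo2 (0.980). Pdk4 itself followed Angptl4 with r = 0.871 and Acot1 with r = 0.835. Each of these values leans on tail-suspension replicate 2, and they are given as a description of 6 arrays.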
